A study of Arabidopsis thaliana with 4 samples.

Results

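Described here are 3 of the genes of the plant surface and its hairs: AT4G19380, AT4G24140 and BLT. These 3 were measured by probes of their own on arrays that compared agamous with wild-type inflorescences of Arabidopsis thaliana. They were picked by name, with their ratios already known, as genes whose transcripts may be more abundant in agamous, from 5443 genes with such probes and 26133 features (genes, or probes with no single gene) in all. AT4G19380, on chromosome 4, is described as a long-chain alcohol oxidase, and AT4G24140, also on chromosome 4, as a hydrolase like BODYGUARD. BLT (AT1G64690, BRANCHLESS TRICHOMES), on chromosome 1, is needed for the branching of leaf hairs. Each had 1 probe assigned to it alone. The ratios that chose the genes are described here without a test.

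The surface of a plant is sealed by the cuticle, a layer of cutin polyester and waxes that epidermal cells make and secrete. Long-chain fatty alcohols are among the lipids from which such waxes are built, and long-chain alcohol oxidases convert them to aldehydes. BODYGUARD, an epidermal protein of the alpha/beta-hydrolase fold, is needed for an intact cuticle, and its mutants have fused organs. Trichomes are single epidermal cells that in Arabidopsis usually branch, and branching depends on their microtubules and on proteins such as BLT, a coiled-coil protein.

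Each of the 4 arrays carried long oligonucleotide probes and was hybridised with RNA of agamous and of wild-type inflorescences in 2 colours, so that each array gives 1 paired log2 ratio per probe. AGAMOUS is the MADS-domain factor that specifies stamens and carpels, and without it flowers repeat petals and sepals instead. Per the labels, channel 1 held the mutant's RNA on arrays 1 and 3, and channel 2 held it on arrays 2 and 4. The labels name no allele, accession or flower stage. They also do not say which channel is the numerator or whether the arrays came from separate plants, so that precision is limited to what 4 arrays give and a p-value covers only the spread between them.

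The arrays did not run in 1 direction. For arrays 1 and 3, labelled with the same channel order, Pearson's r over all probes was -0.08, and it was -0.66 when values at the bounds of plus and minus 6.64 on the log2 scale were left out. Between arrays 2 and 4 the coefficients were -0.45 and -0.71, whereas arrays 1 and 4 had 0.60 and 0.70. The direction of the ratios is therefore not settled, and values follow for 3 readings: as deposited, turned by the labels, for which the signs of arrays 2 and 4 were reversed, and a mirror reading, for which those of arrays 2 and 3 were reversed. The mirror reading was chosen from these correlations, and the 3 genes were picked in it. No probe was assigned to AGAMOUS alone, so the mutated gene gave no check of the labels.

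AT4G19380, the putative oxidase of long-chain alcohols, had deposited log2 ratios of 2.59, -1.87, -1.05 and 1.87 on arrays 1 to 4. Its sign thus changed between arrays, with arrays 1 and 4 high and arrays 2 and 3 low. AT4G24140, the hydrolase like BODYGUARD, had 2.28, -2.15, -0.90 and 1.19 on arrays 1 to 4. BLT, the trichome branching gene, had 1.78, -1.37, -0.88 and 1.24. The 3 genes shared this pattern of signs, and none of their 12 values lay at a bound. On array 1 the ratios of the 3 genes stood between the 95.3 and 96.2 percentiles of all features, and on array 4 between the 94.5 and 96.4 percentiles. On array 2 they stood between the 0.87 and 2.40 percentiles and on array 3 between the 2.19 and 3.95 percentiles, close to the opposite end of each array.

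**Figure D1:**
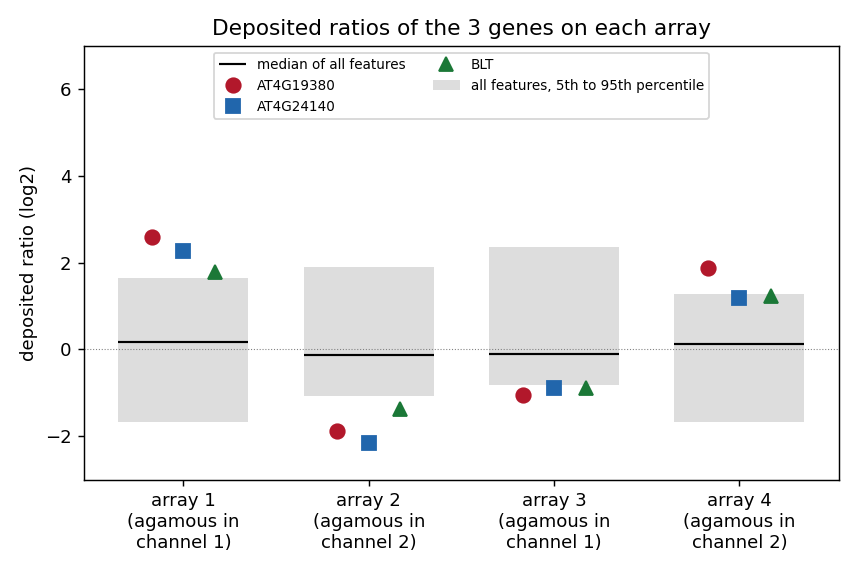
Deposited log2 ratios of AT4G19380, AT4G24140 and BLT (points) on each of the 4 arrays, over the 5th to 95th percentile (grey bars) and the median (black lines) of all features. The 3 genes lie beyond the upper end of the bar on array 1 and beyond the lower end on arrays 2 and 3, whereas on array 4 AT4G19380 lies beyond the upper end and the others just inside it.

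As deposited, the ratios of the 3 genes nearly cancelled. The mean log2 ratio of AT4G19380 was 0.39 ± 2.18 (SD, n = 4), that of AT4G24140 0.10 ± 2.0 and that of BLT 0.19 ± 1.55. Turned by the labels they cancelled in part, with means of 0.38 ± 2.18, 0.59 ± 1.89 and 0.26 ± 1.54 (SD, n = 4 each) in the same order. Of the 26100 features tested, 7.26%, 4.54% and 12.47% had a larger mean when turned by the labels. As deposited these shares were 10.03%, 34.51% and 22.01%. In both readings 2 of 4 arrays were above 0 for each gene, and the SD was several times the mean. A ratio of the same sign on all 4 arrays was found for 8.67% of the 25818 features with 4 values as deposited and for 4.94% when turned by the labels, and the 3 genes were not among them in either reading.

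In the mirror reading all 3 genes had ratios above 0 on every array, which is what they were picked for. AT4G19380 ranged from 1.05 to 2.59 with a mean of 1.85 ± 0.63 (SD, n = 4), a 3.59-fold difference. AT4G24140 ranged from 0.90 to 2.28 with a mean of 1.63 ± 0.69 (SD, n = 4), a 3.10-fold difference. BLT ranged from 0.88 to 1.78 with a mean of 1.32 ± 0.37 (SD, n = 4), a 2.49-fold difference, and thus had both the smallest mean and the smallest spread of the 3. Quantile normalization gave AT4G19380 a log2 ratio of 2.87 ± 1.35, AT4G24140 2.12 ± 1.41 and BLT 1.97 ± 1.31 (SD, n = 4 each). The size of these differences thus depends on the scaling. The median of all features was itself 0.15 in this reading, and the genes stood 1.69, 1.48 and 1.17 above it. In whole inflorescences, more cells of a type and more RNA per cell cannot be told apart.

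**Figure D2:**
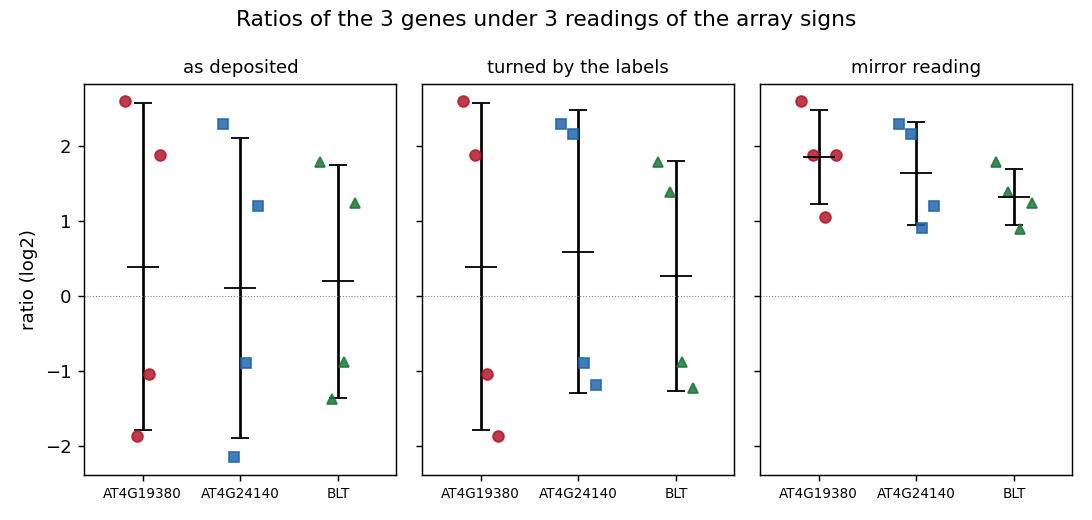
Log2 ratios of the 3 genes on the 4 arrays (points, arrays 1 to 4 from left to right) with the mean (wide dash) and SD (bars) as deposited, turned by the labels and in the mirror reading. The points fall on both sides of 0 in the first and second panels and above 0 in the third, where the means are 1.85, 1.63 and 1.32.

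Ratios above 0 on all 4 arrays were common in the mirror reading, at 31.0% of the 25818 features with 4 values, so that the shared sign alone places the 3 genes in a large class. With a mean difference of at least 2-fold as well, the class held 677 features, or 2.62%, and included the 3 genes. Among the 24570 features with 4 values and none at a bound, 31 (0.13%) had a larger mean than AT4G19380, 70 (0.28%) a larger mean than AT4G24140 and 179 (0.73%) a larger mean than BLT. Among all 26100 features tested, values at the bounds and features with 3 values included, the shares with a larger mean were 2.87%, 3.74% and 4.70% in the same order. These ranks describe genes that were picked for large ratios and are no test of them.

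**Figure D3:**
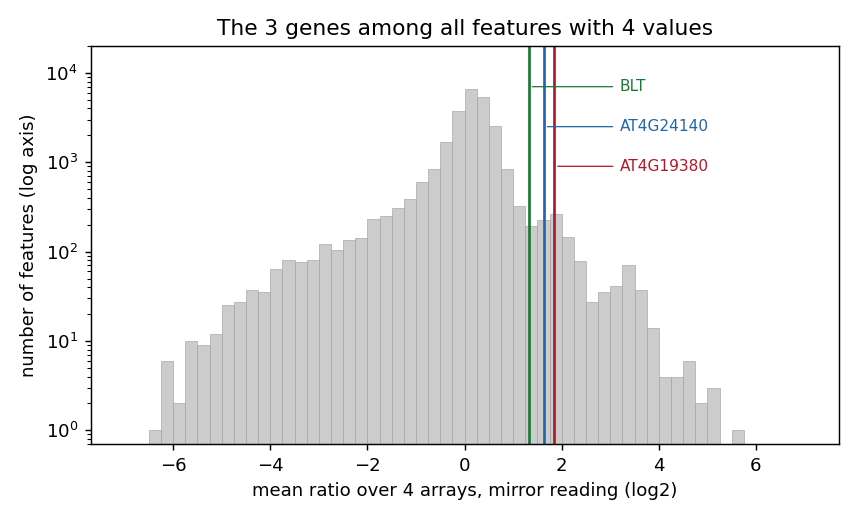
Number of features (log axis) by mean log2 ratio over the 4 arrays in the mirror reading, in bins of 0.25, for the 25818 features with 4 values, with the means of the 3 genes as vertical lines. The lines at 1.32, 1.63 and 1.85 stand in the upper tail, which also holds features with values at the bounds.

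The 3 genes were largest on array 1 and smallest on array 3. AT4G19380, for example, differed 6.01-fold on array 1 and 2.07-fold on array 3, and AT4G24140 differed 4.86-fold and 1.86-fold. In part this order was shared by other features chosen in the same way. The 433 features with ratios above 0 on all 4 arrays, a mean difference of at least 2-fold and no value at a bound had median log2 ratios of 1.51, 1.30, 0.93 and 1.13 on arrays 1 to 4 in the mirror reading, and 137 of them (31.6%) were, like the 3 genes, largest on array 1 and smallest on array 3. Over all features, the end of the upper tail of the mirror reading was also widest on array 1 and narrowest on array 3. In deposited ratios it was 1.65 and 1.29 on arrays 1 and 4 (95th percentile). On arrays 2 and 3 it was -1.06 and -0.81 (5th percentile). In the opposite tail the order was another. Its end was -1.68 and -1.67 on arrays 1 and 4 (5th percentile). On arrays 2 and 3 it was 1.91 and 2.36 (95th percentile), widest on array 3. On array 3 the 3 genes lay between 0.88 and 1.05, near the median of the 433 features. On array 1 the 3 genes lay between 1.78 and 2.59, all above that median.

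**Figure D4:**
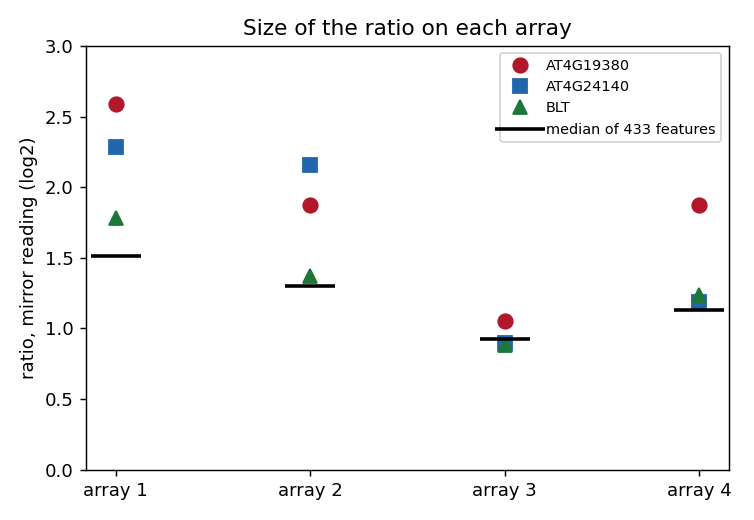
Log2 ratios in the mirror reading of the 3 genes (points) on each array, with the median of the 433 features that are above 0 on all arrays and at least 2-fold higher on average (black dashes). Genes and medians are highest on array 1 and lowest on array 3.

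Between themselves the 3 genes differed less than they differed from 0. The log2 ratio of AT4G19380 was larger than that of BLT on 4 of 4 arrays, by 0.53 ± 0.27 (SD, n = 4). It exceeded that of AT4G24140 on 3 of 4 arrays, by 0.22 ± 0.40, and AT4G24140 exceeded BLT on 3 of 4 arrays, by 0.31 ± 0.40 (SD, n = 4 each). The last 2 differences were smaller than their spread over arrays, so that neither places AT4G24140 above or below its neighbour in the order. On array 4 AT4G24140 and BLT differed by 0.05 and on array 3 by 0.02.

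A second probe, A023824_01, is annotated to 3 genes, of which BLT is 1, and was therefore not counted as a measure of BLT. Its deposited ratios were 0.46, -0.68, -0.42 and 0.29 on arrays 1 to 4, the same pattern of signs as the probe of BLT alone. In the mirror reading its mean was 0.46 ± 0.16 (SD, n = 4), against 1.32 for the single-gene probe. How much of that signal comes from BLT was not tested.

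Few other genes of the plant surface could be read. Lists of cuticle, GDSL lipase, BODYGUARD, fatty alcohol oxidase, epidermal identity, stomatal and trichome genes held 205 loci whose names the reference table bears out. Of these, 7 had a probe of their own, BLT included. The reference table names neither AT4G19380 nor AT4G24140, so they are not in this count although each had 1 probe of its own. Left out because their names could not be paired were 4 of 5 loci of the BODYGUARD list and 3 of 4 of the fatty alcohol oxidase list. The count of probes did not cover the loci left out, so it does not say whether these relatives were measured. Of the 97 cuticle loci, which cover wax and cutin synthesis, export and their regulators, 0 had a probe of their own and 3 appeared on probes shared with other genes. BDG1, the gene of BODYGUARD itself, lies 2 loci from BLT in the reference order and also had no probe of its own. Beside AT4G19380 and AT4G24140, the pathways of the cuticle were thus not analysed here.

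Of the 6 other listed genes, 1 was higher in the mirror reading and 5 had an adjusted p above 0.05 (limma), against 8.23% of 26100 features higher. ATMYC1, a basic helix-loop-helix factor of epidermal cell fate, had deposited ratios of 1.33, -0.79, -0.95 and 0.39 on arrays 1 to 4, the same pattern of signs as the 3 genes. Its mean in the mirror reading was 0.87 ± 0.39 (SD, n = 4, adjusted p = 0.0395, limma), above 0 on 4 of 4 arrays. The call ended without array 1 (adjusted p = 0.0895), array 2 (0.142) or array 3 (0.110), after centring of the arrays (0.0614) and after quantile normalization (0.1215). It also ended with a channel-order term that set arrays 1 and 4 against arrays 2 and 3 (adjusted p = 0.0701, limma). That is the channel order implied by the mirror reading, not the labelled one. A count of 1 in 6 is too small to set these genes apart from that share of all features.

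The other trichome genes had smaller ratios. AN (ANGUSTIFOLIA), which like BLT is needed for trichome branching, had 0.46, -0.05, -0.34 and 0.49 on arrays 1 to 4 and a mirror mean of 0.34 ± 0.20 (SD, n = 4, adjusted p = 0.118, limma). SPK1, which is needed for the shape of trichomes and pavement cells, had a mirror mean of 0.29 ± 0.19 (adjusted p = 0.148). Both were above 0 on 4 of 4 arrays, with means close to the 0.15 that was the median of all features. POR, a tubulin-folding cofactor, had a mirror mean of 0.33 ± 0.45 (adjusted p = 0.296) and BRK1, a subunit of the complex that activates actin branching, 0.17 ± 0.18 (adjusted p = 0.334), and each was above 0 on 3 of 4 arrays. STOMAGEN, a secreted peptide that promotes stomata, had a mirror mean of 0.38 ± 0.46 (adjusted p = 0.247), with array 2 below 0. The median of the 6 means was 0.33, beside 0.15 for all features.

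In the other readings these 6 genes gave no call. As deposited 0 of 6 passed limma's test (0 at an unadjusted p under 0.05), where 0.226% of features did. Turned by the labels 0 of 6 passed (0 at an unadjusted p under 0.05), where 0% of features did (191 of them at an unadjusted p under 0.05). Their means lay between -0.13 and 0.35 as deposited and between -0.09 and 0.20 when turned by the labels.

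The overall sign of the mirror reading rests on genes of the missing organs. Of 7 markers of stamens and carpels with a probe of their own, 5 passed limma's test with ratios below 0 and 0 above 0, against 9.16% of features below 0. All 7 loci of the list had such a probe, and their direction is already known from earlier work on these data. This count is thus no test of it. The markers are used here only to orient the 3 genes. CES, a regulator of the carpel's transmitting tract, had -4.43, 6.07, 4.43 and -5.01 on arrays 1 to 4, the reverse of the signs of the 3 genes on each array. EMS1, a receptor kinase without which anthers form no tapetum, had -1.32, 1.33, 1.35 and -1.39. INO, a factor of the outer integument, had a mirror mean of -1.52 ± 0.47 (SD, n = 4, adjusted p = 0.0155, limma), and no longer passed when array 2 (adjusted p = 0.0707), array 3 (0.0577) or array 4 (0.0535) was left out. Its 3 probes had mirror means of -0.92, -2.80 and -0.83, which differ in size and not in sign. Since agamous flowers lack these organs, the 3 genes likely have more transcript in agamous if the 7 markers stand for the organs. With the opposite overall sign the 3 genes would be lower there. All 7 markers were below 0 on 4 of 4 arrays in the mirror reading, with means from -4.99 to -0.22 (SPL, -0.22 ± 0.10, adjusted p = 0.170, and TUA1, -0.44 ± 0.15, adjusted p = 0.0562, did not pass). The part of these organs in the ratios of the 3 genes was not tested.

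EMS1 and BLT had mirror means of like size and opposite sign, -1.35 and 1.32, but different spreads. The SD over arrays was 0.03 for EMS1 and 0.37 for BLT. For ATA20 of the anther and SWEET8, a sugar transporter of pollen wall formation, the mirror means were -2.83 ± 0.24 and -4.68 ± 0.86 (SD, n = 4 each), and the 2 probes averaged for ATA20 had -3.77 and -1.89. The markers shared no order of the arrays: in size, SWEET8 (-3.65) and INO (-0.90) were smallest on array 1, TUA1 (-0.59) was largest there, and ATA20 (-2.58) was smallest on array 4.

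**Figure D5:**
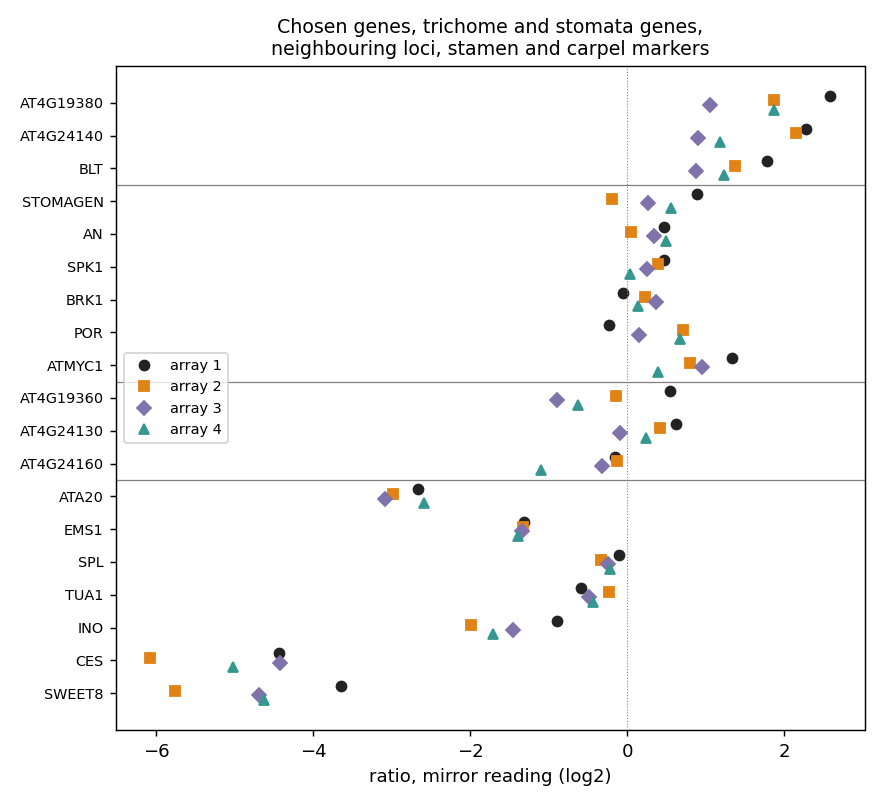
Log2 ratios in the mirror reading on each of the 4 arrays for the 3 genes, the 6 other listed trichome and stomata genes, 3 neighbouring loci and 7 stamen and carpel markers, in blocks from top to bottom. The 3 genes lie between 0.88 and 2.59, the 6 listed genes between -0.23 and 1.33, with ATMYC1 reaching into the range of the 3 genes on arrays 1 and 3, and the 7 markers below 0 on every array.

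Of the 12 loci up to 2 places away in the reference order, 3 had a probe of their own. In the mirror reading 0 of 3 passed limma's test (0 at an unadjusted p under 0.05), against 8.23% of features higher and 9.16% lower. AT4G24130, next to AT4G24140, had 0.62, -0.42, 0.09 and 0.24 on arrays 1 to 4 and a mirror mean of 0.30 ± 0.30 (SD, n = 4, adjusted p = 0.222, limma). Its 2 probes had mirror means of 0.22 and 0.37. AT4G24160, 2 places from AT4G24140, had a mirror mean of -0.43 ± 0.46 (adjusted p = 0.202), and AT4G19360, 2 places from AT4G19380, had -0.28 ± 0.63 (adjusted p = 0.488).

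The genes whose 4 deposited ratios lay nearest to each of the 3 were sought by Euclidean distance on the log2 scale, among 5138 other genes with 4 values and none at a bound. Nearest to AT4G19380 were AOP3, an enzyme of glucosinolate side chains, at a distance of 0.31, AT3G13840 at 0.42, CSLA01, a mannan synthase, at 0.64, AT2G03130 at 0.80 and AT4G24140 itself at 0.82. AOP3 had 2.45, -1.78, -1.20 and 1.66 on arrays 1 to 4, beside 2.59, -1.87, -1.05 and 1.87 for AT4G19380. Nearest to AT4G24140 were AT5G55720 at 0.38, AT2G39560 at 0.39, IAA33, an Aux/IAA family member, at 0.46, the receptor-like kinase NCRK at 0.61 and AT3G29300 at 0.63. Nearest to BLT were AT1G53070 at 0.18, AT4G22730 at 0.25, AT1G30600 at 0.29, AT2G34060 at 0.35 and AT2G40250 at 0.36. AT1G53070, for example, had 1.72, -1.28, -0.75 and 1.17, beside 1.78, -1.37, -0.88 and 1.24 for BLT.

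The 3 genes were not each other's nearest. From AT4G19380, AT4G24140 ranked 5 and BLT 12 of 5138. From AT4G24140, AT4G19380 ranked 10 and BLT 14, and from BLT, AT4G24140 ranked 71 and AT4G19380 ranked 138. The 14 other genes named by distance each stood beside 1 of the 3 genes only. With 4 arrays as the only points, nearness describes like ratios on these arrays and nothing further.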

How the data were processed

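The deposited values are log2 ratios of the 2 channels of each of 4 arrays, normalized by the authors as in a publication cited in the labels. The steps, the numerator channel and the centring are not given in the sources used here. The medians of the arrays were 0.16, -0.14, -0.11 and 0.13. Of 26933 table entries, 26474 probes were analysed, and 2242 of their values lay at a bound of 6.64 in size (100-fold). Depth is not defined for arrays. 5784 probes had 1 gene in the platform annotation, and 7497 had several and were not named. Probes of 1 gene were averaged. Names came from RefSeq's table of assembly TAIR10.1, whose coordinates are not printed because no build is named for the probes. The table names neither AT4G19380 nor AT4G24140, whose functions are as given when the genes were chosen.

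Features with at least 3 values (26100) entered a two-sided limma fit (version 3.58.1, lmFit and eBayes, R 4.3.3) of the mean ratio against 0, which was checked on simulated ratios, with p-values adjusted by Benjamini and Hochberg over all of them and a threshold of 0.05. The genes, lists and rules were chosen with earlier results of these data known. Of 217 listed epidermal loci, 12 were left out because their names could not be paired. Named were the 3 genes, list genes with a probe of their own, the 5 nearest genes to each, and loci up to 2 places away. Alternatives were centring, quantile normalization, values at the bounds missing, a channel-order term, 4 values required, probes alone, an adjusted p under 0.01 and each array left out.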

Additional observations from a re-analysis of the deposited data

How the results depend on the processing

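The 3 genes were picked for ratios above 0 on all arrays of the mirror reading, so that their sign under these alternatives carries no information. Without each array in turn their means lay between 1.60 and 2.11 for AT4G19380, 1.41 and 1.87 for AT4G24140, and 1.16 and 1.46 for BLT. Quantile normalization raised AT4G19380 to 2.87 and BLT to 1.97, beyond 1 SD, and AT4G24140 to 2.12, within 1 SD. The SDs rose to 1.35, 1.31 and 1.41 in that order, and the cause was not tested. The call among the 6 other listed genes fell to 0 under centring, quantile normalization, the channel-order term and an adjusted p under 0.01 (limma, with 1, 2, 2 and 2 at an unadjusted p under 0.05), and lay between 0 and 1 with an array left out. Over all features, 4539 passed in the mirror reading, with 2147 higher and 2392 lower, against 887 higher and 2670 lower after centring, 1166 at the stricter threshold and between 1084 and 2096 with an array left out, where fewer arrays are fitted. As deposited 59 passed, 0 with values at the bounds missing (392 at an unadjusted p under 0.05, limma) and between 18 and 184 with an array left out, and turned by the labels between 0 and 46. Of the listed genes, markers and neighbouring loci under the alternatives other than the stricter threshold and probes alone, 134 values kept their side of the threshold, 9 lost a call (6 of ATMYC1 and 3 of INO) and 1 gained one (TUA1 after centring, adjusted p = 0.0353). At the stricter threshold 4 of the 7 markers passed, against 5. Each array is itself a pair, so the fit of its ratios against 0 already used that pairing. No further pairing was possible because the arrays form 1 group. With 4 arrays and no scanner signals used here, signal over background is unknown.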
